A study of Mus musculus with 24 samples.

Results

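Very long protein-coding genes were followed in LLC1 cells, a mouse Lewis lung carcinoma line grown in culture, across 24 poly(A) RNA-seq libraries. A gene was included when the GENCODE M21 annotation of GRCm38 calls it protein-coding, its annotated span is at least 300000 bases, and its summed transcripts reached at least 1 TPM (a unit that gives each transcript's share of a library's transcripts, scaled to a fixed total) in at least 3 of the 6 untreated libraries. Collagen genes were to be left out, and 0 had to be removed. Members were thus chosen by annotated span and by the TPM of the untreated libraries, and the rule kept 204 genes of the 561 protein-coding genes of that span, among 28328 genes with values in all. The other 357 were below the level rule. The 8 groups, each with 3 libraries, cross 4 treatments with 2 times. The untreated cells received 0.1% DMSO alone, the chemotherapy cells 2.5 µM cisplatin with 2.5 µM pemetrexed, the trametinib cells 10 nM trametinib, and the combination cells all 3 drugs, each for 6 h or 24 h. Whether the treated cells also received DMSO is not stated. All groups are the same line, no animal or other line is involved, and nothing in the labels says whether the 3 libraries of a group came from separate cultures.

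RNA polymerase II must copy every intron of a gene before a complete polyadenylated transcript can be released, so the time to finish a transcript grows with the span of its gene while the length of the mature mRNA depends on exons alone. Cisplatin forms adducts on DNA, mostly at purine bases, that can block polymerases, and stalled RNA polymerase II recruits transcription-coupled repair. Pemetrexed inhibits folate-dependent enzymes of nucleotide synthesis. Trametinib inhibits the MEK kinases, which activate ERK downstream of RAS. These are background facts and were not measured here.

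The mature mRNA gives no hint of the distance that separates its exons. In the following genes, 30 bases of mRNA were copied from DNA that lies on both sides of a long intron. Each line gives the last 15 bases of an exon in lower case and the first 15 bases of the next exon in capitals, 5′ to 3′ on the gene's strand, from the GENCODE M21 transcripts. The genes are the leading examples of the results that follow.
Pard3: caaacctggagacagCAATCGATCCACTCC
Camk1d: ggagaccctcggaacTGGGGCCTTTTCTGA
Trappc9: cttggccacgtcaagACTCTGGAAGCTGTC
Gtdc1: tcctgatgtgagcagATTCATGCCCAAGCA
Pola1: ctgaacatgagaaagATAAATTGAAGAAGC
Slc7a11: agacaaccctgaaaaAACCATCCCCCTTGC

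The Pard3 junction joins exons 22 and 23 of 25 across an intron of 118445 bases in a gene at chr8:127063893-127612286 (plus strand). The Pard3 transcript used covers 548231 bases and is not the most abundant one of the gene. The Camk1d junction joins exons 1 and 2 of 11 across 148365 bases (gene at chr2:5293457-5714515, minus strand). Both genes had some of the largest falls after 6 h of chemotherapy. The Trappc9 junction joins exons 16 and 17 of 22 across 146198 bases (chr15:72589620-73061204, minus strand). The Gtdc1 junction joins exons 5 and 6 of 11 across 116730 bases (chr2:44564412-44927657, minus strand), in a transcript that covers 297211 bases. Both were among the largest falls after 24 h. The Pola1 junction joins the last pair of its 37 exons across 69774 bases (chrX:93304767-93632155, minus strand), and Pola1 rose at 24 h. Slc7a11 (chr3:49892526-50443614, minus strand) has an annotated span of 551089 bases, but its most abundant transcript covers 78674 bases, and its junction of exons 6 and 7 spans an intron of 33820 bases.

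The 204 members were nearly all intron. Their median annotated span was 415259 bases, from 300533 for Pam to 4434882 for Gm20388, and introns made up a median of 97.6% of it, against 80.3% in 10575 shorter protein-coding genes past the same level rule. The dominant transcript, the one with the highest mean TPM of its gene, had a median of 13 introns and an mRNA of 4686 bases, against 7 introns and 2613 bases in the shorter genes. Its longest intron had a median of 101058 bases, against 5992 in the shorter genes, and this was the first intron in 92 members. The dominant transcript itself covered at least 300 kb in 138 members and under 100 kb in 32. Members were expressed at lower levels than shorter genes, with a median of 6.01 TPM over the 24 libraries against 22.9. Snd1, which encodes a nuclease of RNA decay and silencing complexes, was the most abundant, at a mean of 422 TPM. A total of 11 members overlapped another protein-coding gene on the same strand. The longest, Gm20388, is a read-through model that overlaps 38 of them and whose longest intron takes 98.9% of its span, so its reads cannot be assigned to one very long transcript with certainty.

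The threshold cut a continuous series. Just inside the span limit were Pam (300533 bases), Stk3 (303426) and Plce1 (303922), and just outside it were Akap13 (299076), AW554918 (298323) and Ncam1 (296790). After 24 h of chemotherapy the log2 change was −0.34 for Pam, −0.80 for Stk3 and −0.85 for Plce1 inside, against 0.74 for Akap13 (not called), −0.90 for AW554918 and −0.11 for Ncam1 (not called) outside. By the third highest untreated value, the members nearest the level limit were Galntl6 (1.05 TPM), Pakap (1.09) and Prex2 (1.10), and the excluded genes nearest it were Adgrv1 (0.976), Ccser1 (0.962) and Dnm3 (0.914).

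All 6 markers of a mesenchymal carcinoma line were expressed in each library, among them Vim (3296 to 4478 TPM), Krt8 (69.9 to 209) and Krt18 (121 to 361). Of the markers of other cells, 3 of 4 epithelial (Epcam and Cdh1 among them), 3 of 5 macrophage (Ptprc and Adgre1), 2 of 4 T or NK cell (Cd3e) and 2 of 3 endothelial genes (Cdh5) stayed below 0.2 TPM in every library. The others did not: Krt19 reached 7.65 TPM, Lyz2 3.97, Cd3d 1.17 and Pdgfra 9.00, and some moved with the treatments. At 24 h the macrophage list summed to 10.7 to 15.2 TPM in untreated and 34.8 to 41.1 TPM in chemotherapy libraries, nearly all of it Cd68 (means of 12.7 and 37.0 TPM), and the endothelial list to 2.61 to 3.61 and 7.09 to 12.8 TPM, nearly all of it Pecam1. The fibroblast list summed to 5.34 to 6.14 TPM in untreated, 22.7 to 23.3 TPM in trametinib and 37.6 to 40.8 TPM in combination libraries at 24 h, with Dcn at means of 1.32, 11.7 and 27.8 TPM. The part of these genes in the results was not tested. Correlations of log2 values between libraries of one group ran from 0.982 to 0.994, and no pair of libraries was identical. Differences are given on the scale of log2(TPM + 1), on which the changes of weakly expressed genes appear too small, each with its standard error and a Benjamini-Hochberg adjusted p from limma over 12581 genes, and a gene is called when that p is under 0.05.

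The members together lost part of their share of the transcriptome under chemotherapy. The median member stood at 6.18, 6.73 and 6.42 TPM in the 3 untreated libraries at 6 h and at 4.55, 3.82 and 3.73 TPM after chemotherapy. At 24 h the untreated libraries gave 8.01, 8.02 and 7.93 TPM and the chemotherapy libraries 4.26, 4.11 and 4.37 TPM. The groups did not overlap at either time. With trametinib the median was 6.63, 6.93 and 6.90 TPM at 6 h and 8.54, 7.61 and 8.17 TPM at 24 h, within or beside the untreated range. The combination gave 4.74, 4.58 and 5.14 TPM at 6 h, near chemotherapy, and 6.49, 6.83 and 6.50 TPM at 24 h, between chemotherapy and untreated cells. Of 204 members, 191 to 192 reached 1 TPM in an untreated library at 6 h and 172 to 174 in a chemotherapy library, against 202 to 203 and 172 to 177 at 24 h. The rule asked for 1 TPM in untreated libraries, so these last counts are a description. TPM measures shares of bulk RNA, so fewer expressing cells and less RNA per cell cannot be told apart.

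After 6 h of chemotherapy, 147 of the 204 members (72.1%) were called lower and 2 (0.98%) higher, while 13.5% of all genes tested were called lower and 11.3% higher. The median change was −0.53 for the members and 0.01 for all genes. The rule used the levels in the untreated libraries that this comparison also uses, so these counts are a description, as are those of the other comparisons with untreated cells. The share called lower climbed with annotated span over the 10779 protein-coding genes that passed the level rule with collagen genes left out. It was 3.46% under 10 kb, 6.4% from 10 to 30 kb, 18.8% from 30 to 100 kb, 52.3% from 100 to 300 kb, 74.1% from 300 to 500 kb and 68.1% at 500 kb or more. Spearman's rank correlation between span and the 6 h change was −0.50 across those 10779 genes, which share libraries and are not independent replicates. Within the 204 members the rank correlation with annotated span was −0.00, so annotated span did not order the members by their 6 h change.

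**Figure D1:**
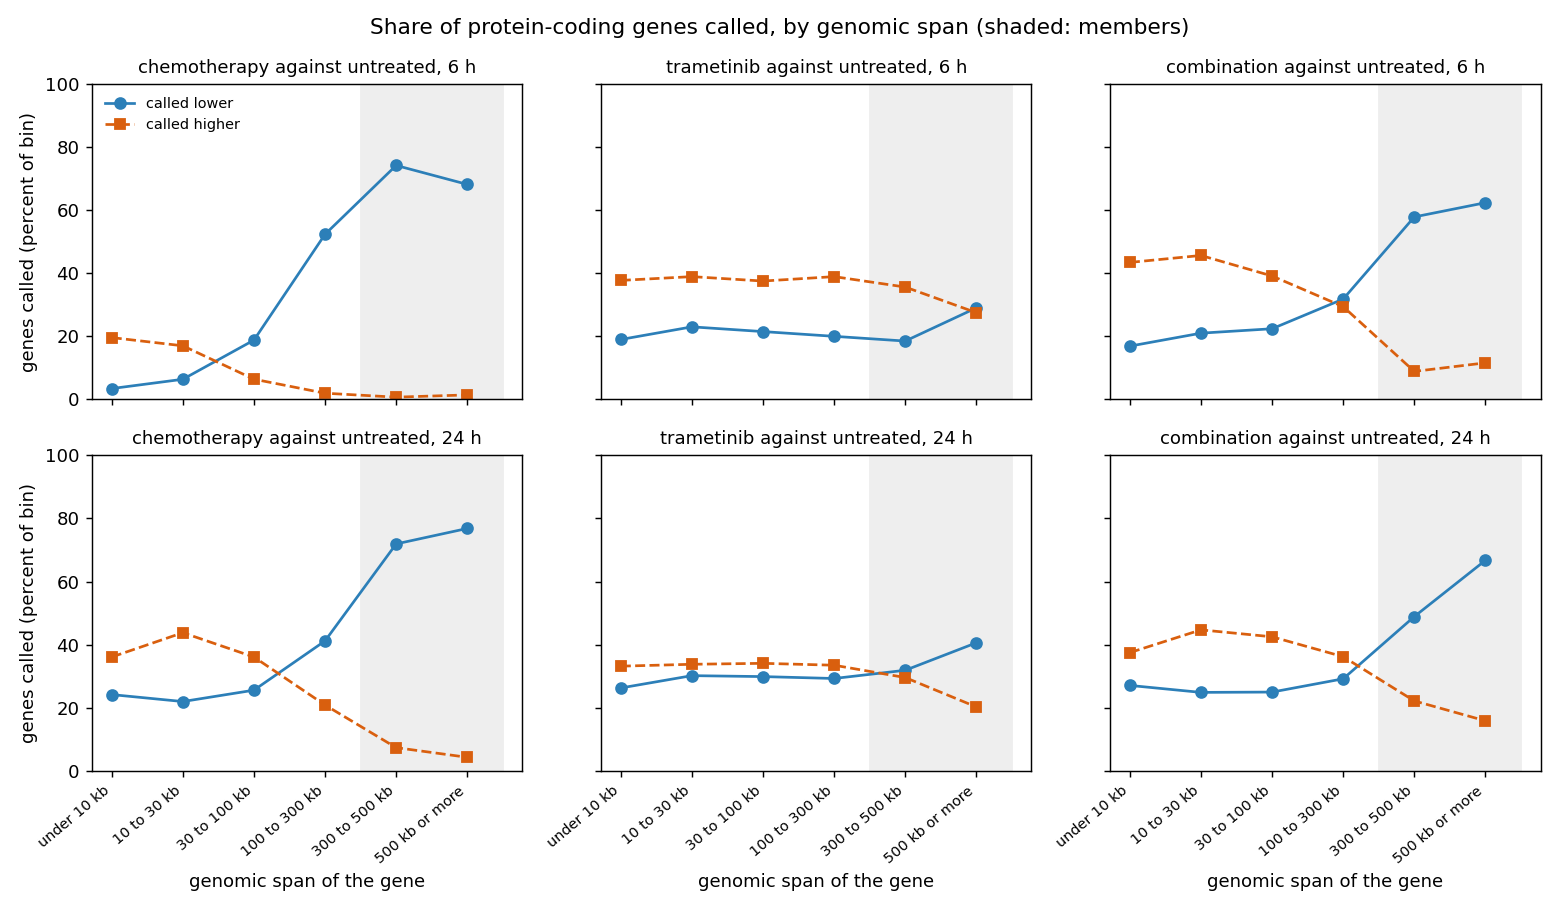
Percent of protein-coding genes called lower (blue circles) or higher (orange squares) against untreated cells, by annotated span on the horizontal axis, for chemotherapy, trametinib and the combination at 6 h (top) and 24 h (bottom). The shaded bins hold the 204 members. Under chemotherapy the lower share went from 3.46% to 74.1% at 6 h and stood at 71.9% and 76.8% in the shaded bins at 24 h. Under trametinib it stayed between 18.5% and 40.6% in all bins and was highest at 500 kb or more at both times.

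Pard3, which encodes a scaffold of the cell polarity complex, had the largest fall at 6 h. Its level was 56.5, 56.0 and 56.2 TPM in untreated cells and 24.1, 16.9 and 30.3 TPM after chemotherapy, with no overlap (log2 change −1.25, SE 0.13, adjusted p = 1.6e-06). Camk1d, a calcium and calmodulin-dependent kinase, went from 10.3, 11.1 and 11.1 TPM to 4.55, 4.11 and 4.0 TPM. Its fall of 1.18 on the log2 scale had an SE of 0.08 (adjusted p = 3.5e-09). Ank3, an ankyrin that ties membrane proteins to the spectrin skeleton, changed by −1.10 (SE 0.08), and Gtdc1, a glycosyltransferase-like protein, also by −1.10 (SE 0.11). At this time no chemotherapy library overlapped an untreated library for any of these genes, which the naming rule required. In all, 17 members were called with a log2 change of −1 or below. The 2 called rises were small: Pde4b, a cAMP phosphodiesterase, changed by 0.37 (SE 0.08, adjusted p = 2.7e-03), from 3.30, 4.18 and 3.76 TPM to 5.33, 4.45 and 5.56 TPM, and Zfp697 by 0.23. Zfp697 lies outside the naming rule and is named because the count is 2. Without the first chemotherapy library, the first untreated library or the third untreated library of 6 h, 1 member was called higher.

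**Figure D2:**
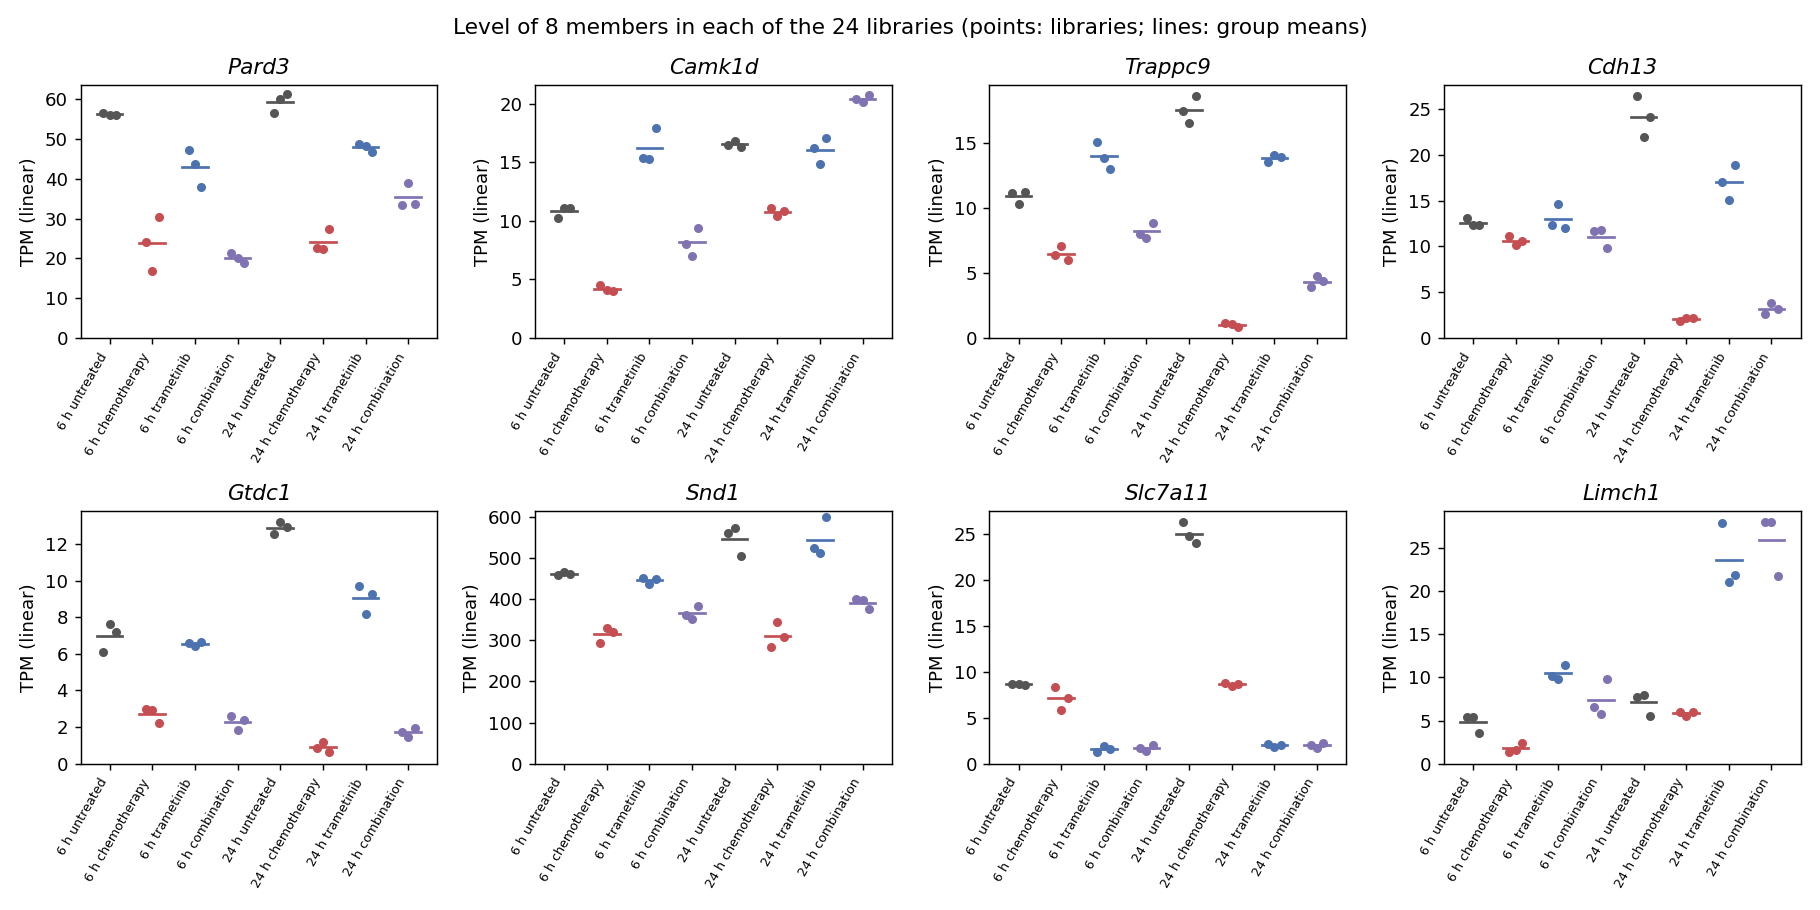
Level of 8 members in each library in TPM on a linear axis starting at 0, with the 8 groups on the horizontal axis, points for libraries and lines for group means. Chemotherapy libraries of Pard3, Camk1d, Gtdc1 and Snd1 lie below untreated ones at both times, and those of Trappc9 and Cdh13 reach about 1 and 2 TPM at 24 h. With trametinib Slc7a11 is lower and Limch1 higher than in untreated cells at both times. Limch1 is also lower on average with chemotherapy than in untreated cells at 6 h.

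The falls after 24 h of chemotherapy included many of larger size. Of the members, 150 (73.5%) were called lower and 13 (6.37%) higher, against 24.3% and 34.9% of all genes tested, with a median of −0.74 for members and 0.06 for all genes. A log2 change of −1 or below was called in 71 members (34.8%) and 2.07% of all genes, against 17 members (8.33%) and 0.270% of all genes at 6 h. The 6 h and 24 h comparisons contrast different libraries but share the same estimate of spread. In both, 121 members were called lower, which is 82.3% of the 6 h list and 80.7% of the 24 h list. Over all genes 839 were called lower at both times (6.67%), which is 49.6% of the 6 h list and 27.5% of the 24 h list. A further 26 were called lower at 6 h alone, 29 at 24 h alone and 28 at neither time. No member was called higher at both times. Across span bins the lower share was between 22.0% and 25.6% for the 3 bins below 100 kb, 41.2% from 100 to 300 kb, 71.9% from 300 to 500 kb and 76.8% at 500 kb or more. The rank correlation with span over the 10779 genes was −0.13 at this time.

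Trappc9, a subunit of a vesicle tethering complex, had the largest fall among the members with a mean of at least 5 TPM. It was at 17.5, 16.5 and 18.6 TPM in untreated cells and at 1.17, 1.05 and 0.821 TPM after chemotherapy, a log2 change of −3.20 (SE 0.08, adjusted p = 2.1e-16). The groups did not overlap, which the naming rule required. The fall of Trappc9 at 6 h had been 0.67 on the same scale, which makes it an example of a loss that deepened with time. Cdh13, a cadherin anchored to the membrane by a lipid, did not pass the test at 6 h (13.1, 12.3 and 12.3 TPM against 11.1, 10.2 and 10.5 TPM, change −0.23, adjusted p = 0.13). By 24 h it had gone from 26.4, 22.0 and 24.2 TPM to 1.84, 2.15 and 2.22 TPM, a change of −3.03 (SE 0.11, adjusted p = 2.1e-14). Gtdc1 went from 12.5, 13.2 and 12.9 TPM to 0.877, 1.18 and 0.642 TPM, a change of −2.88 (SE 0.11, adjusted p = 1.4e-13). Babam2, part of the BRCA1-A and BRISC deubiquitinase complexes of the DNA damage response, changed by −2.68, from 35.1, 32.6 and 29.2 TPM to 4.16, 3.55 and 4.97 TPM. Cpq, a secreted carboxypeptidase, changed by −2.49. Immp2l, a mitochondrial inner membrane peptidase chosen here after its values were seen, fell by as much, with a mean of 10.5 TPM in untreated and 0.254 TPM in chemotherapy cells (change −3.19, SE 0.22).

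A few very long genes moved the other way at 24 h. Pola1, the catalytic subunit of DNA polymerase alpha, stood at 28.6, 30.8 and 24.5 TPM in untreated cells and at 45.3, 36.9 and 61.4 TPM after chemotherapy, a change of 0.73 (SE 0.14, adjusted p = 2.1e-04). The untreated libraries were all lower, which the naming rule required, but the chemotherapy libraries were widely spread. Zfhx3, a zinc finger and homeobox transcription factor of 1018987 bases, went from 2.38, 2.74 and 2.51 TPM to 5.14, 4.06 and 4.69 TPM (change 0.67, SE 0.09, adjusted p = 3.7e-06) after having fallen by 0.27 at 6 h. Anks1b, an ankyrin repeat protein of 1099792 bases, rose by 0.90 (SE 0.15), from 1.45, 2.87 and 2.26 TPM to 5.43, 4.16 and 5.11 TPM. The rises of Sema6d (0.20), Oxr1 (0.21) and Pcdh7 (0.23) were small. Without the third chemotherapy library or the third untreated library of 24 h, 8 members were called higher in place of 13, and these 3 calls were the weakest: Oxr1 lost its call without the second chemotherapy library (0.14), Sema6d without the third untreated library (0.18), and Pcdh7 without any 1 of the 6.

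Transcript span separated the members that fell at 6 h better than annotated span did. The rank correlation between the change and the span of the dominant transcript was −0.38 at 6 h and −0.36 at 24 h over the 204 members. Of the 32 members whose dominant transcript covered under 100 kb, 9 were called lower at 6 h (28.1%, median change −0.15), against 80 of 99 at 300 to 500 kb (80.8%, median −0.64) and 33 of 39 at 500 kb or more (84.6%, median −0.63). At 24 h the same bins gave 18 of 32 (56.2%, median −0.39), 78 of 99 (78.8%, median −0.81) and 35 of 39 (89.7%, median −1.16). Pard3 was an exception: its most abundant transcript covers 26768 bases, and its transcripts of at least 50% of the gene went from 17.1, 20.4 and 18.7 TPM to 7.68, 6.13 and 5.88 TPM at 6 h, while its shorter ones went from 39.5, 35.6 and 37.5 TPM to 16.4, 10.7 and 24.4 TPM. Over the 204 members the rank correlation of the 6 h change was −0.25 with the number of introns and −0.22 with the longest intron, and that of the 24 h change was −0.09 and −0.19, and −0.27 with the intron share of the gene. Among the 138 members with a dominant transcript of at least 300 kb, the median change at 6 h was −0.64 with 2 to 10 exons, −0.54 with 11 to 20, −0.68 with 21 to 30 and −0.66 with 31 or more, with 75.8%, 77.3%, 93.1% and 84.4% called lower. By longest intron it was −0.61 under 100 kb, −0.67 from 100 to 200 kb and −0.53 at 200 kb or more. At 24 h the exon bins gave −0.92, −0.70, −0.97 and −0.98 in the same order. By level at 6 h, 61.2% of the 85 members under 5 TPM were called lower, 80.2% of the 81 at 5 to 20 TPM and 78.9% of the 38 at 20 TPM or more.

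**Figure D3:**
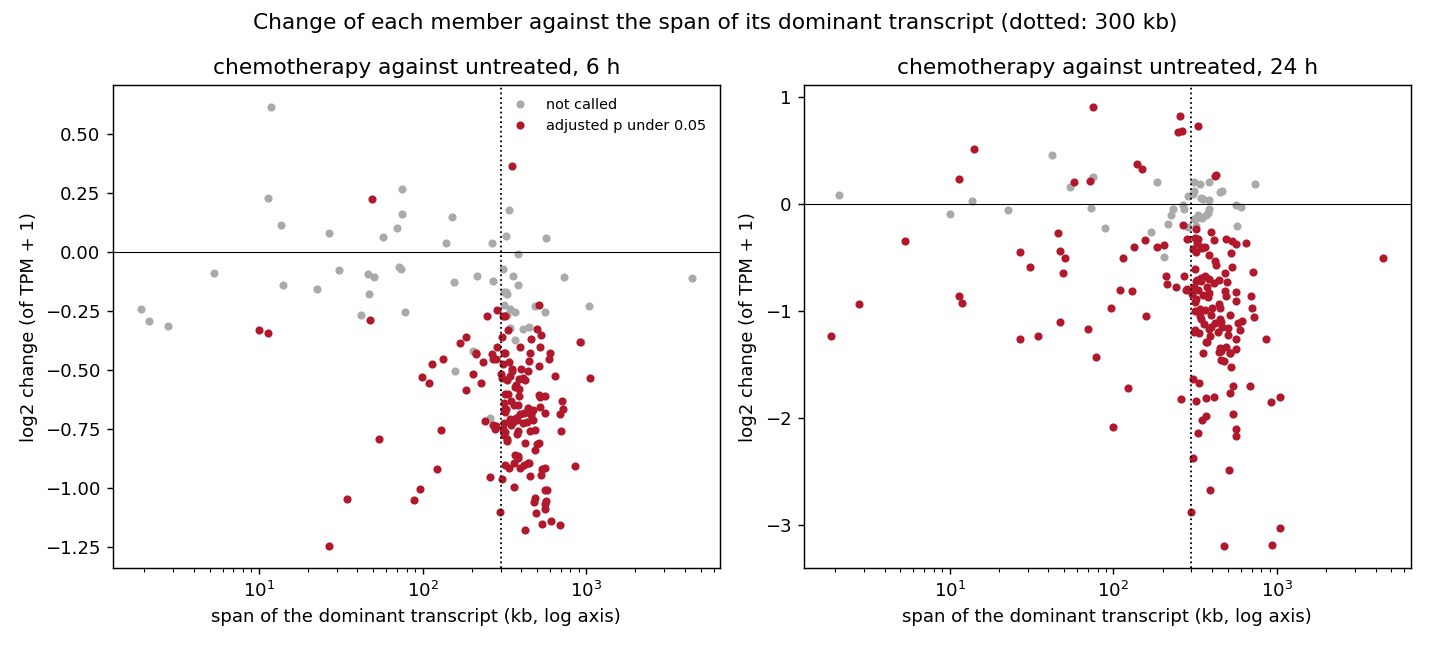
Log2 change after chemotherapy against the span of each member's dominant transcript in kb on a log axis, at 6 h (left) and 24 h (right), with called members in red and the others in grey. Points left of the dotted line at 300 kb lie nearer to 0 on average at 6 h (34 of 66 called lower) than those right of it (113 of 138).

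The same genes could be compared with themselves by dividing their transcripts into those that cover at least 50% of the gene (full-span) and those that cover less (short-span). At 6 h, 145 of 172 members with testable full-span transcripts were called lower (84.3%, against 13.2% of full-span sets of all genes), with a median of −0.64. Short-span transcripts were called lower in 25 of 113 members (22.1%, against 4.98% of all), with a median of −0.23. With full-span set at 80% of the gene, they were called lower in 42 of 125 (33.6%, median −0.31). At 24 h the counts were 132 of 172 for full-span (76.7%, against 23.1%; median −0.83) and 51 of 113 for short-span transcripts (45.1%, against 20.3%; median −0.39). Within the 83 members with both kinds, the full-span change was below the short-span change in 19 at 24 h (22.9%, against 4.45% of 4495 genes of any length) and above it in 3 (3.61%, against 12.9%). At 6 h the difference was called in 1 member of 83, Pcdh7, a protocadherin named because the count is 1, and lower in 0.0445% of the 4495 genes. Kallisto apportions reads among transcripts that share exons, so short-span and full-span values of a gene are not independent. The 172 and the 113 members are different sets, of which 83 have both classes, and the classes were not matched for level.

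Examples show both patterns. In Wwox, an oxidoreductase of a common fragile site, the full-span transcripts went from a mean of 7.13 ± 0.600 TPM (SD, n = 3) in untreated to 0.241 ± 0.151 TPM in chemotherapy cells at 24 h. Its short-span transcripts went from 3.81 ± 0.139 to 2.05 ± 0.212 TPM, and the difference between these changes was −2.06 (SE 0.18, adjusted p = 2.9e-07). In Gmds, which makes GDP-fucose, full-span transcripts went from 39.4 ± 1.58 to 10.4 ± 0.728 TPM. Its short-span transcripts stood at 0.921 ± 0.442 and 0.721 ± 0.332 TPM (difference −1.67, SE 0.18). Below 1 TPM the scale of log2(TPM + 1) damps changes, so this difference depends partly on the low level of the short-span transcripts. The rise of Pola1 lay mainly in its short-span transcripts. These were at 4.57, 5.10 and 3.89 TPM in untreated and at 18.5, 8.96 and 34.2 TPM in chemotherapy cells, against 24.1, 25.7 and 20.6 TPM and 26.9, 27.9 and 27.2 TPM for full-span ones. Prkca, protein kinase C alpha, went the other way: its short-span transcripts changed by −1.41 and its full-span ones by −0.73 at 24 h. Wwox was chosen after its values were seen.

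**Figure D4:**
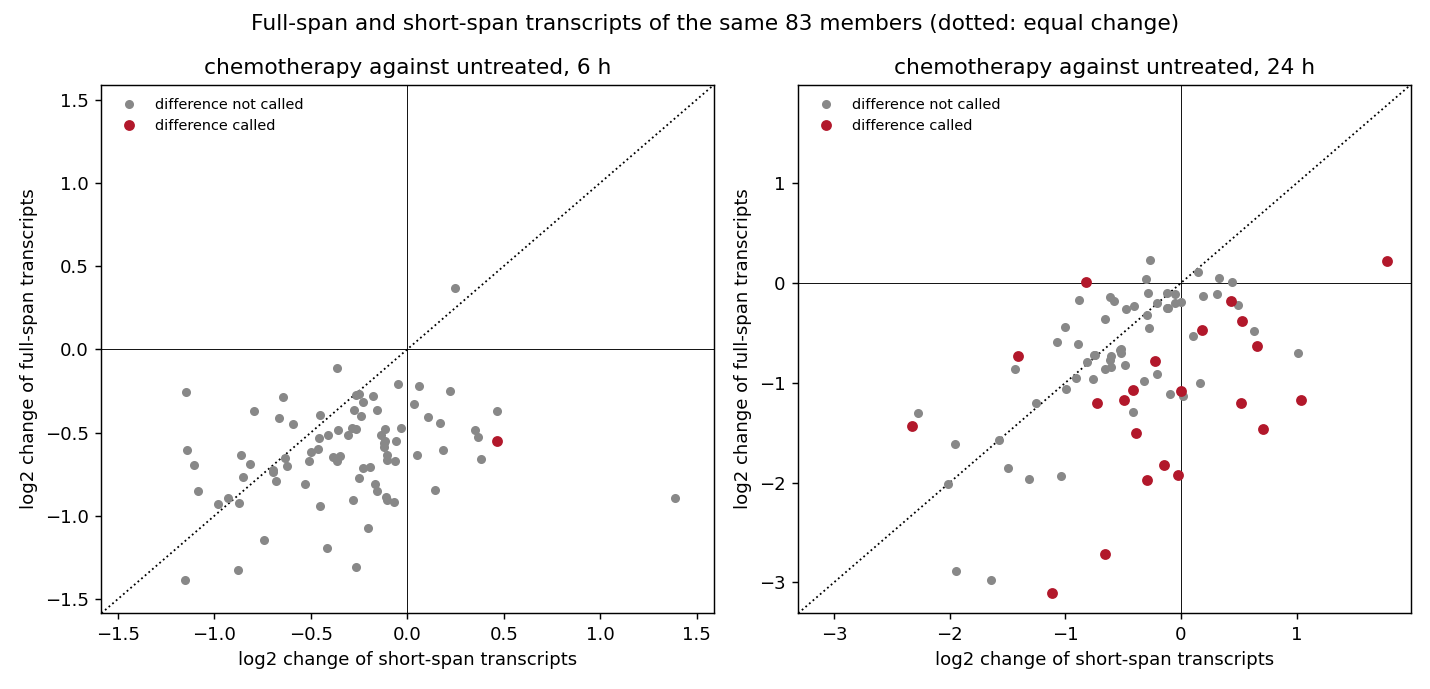
Log2 change of full-span transcripts (vertical) against that of short-span transcripts (horizontal) of the same 83 members after chemotherapy, at 6 h and 24 h, with genes whose 2 changes differ by the test in red. Most points lie under the dotted line of equal change at 6 h, where the median difference was −0.28, and 22 differences were called at 24 h.

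By role, the falls at 6 h ran through every list, with the members sorted by general knowledge of their products. Among 20 polarity, junction and cytoskeleton genes 17 fell and 0 rose, with a median of −0.71. They include Pard3, Ank3 and Dst, a giant cytoskeletal linker that changed by −0.33 (SE 0.07). Its relative Macf1, a linker of actin and microtubules, did not pass the test (50.2, 54.8 and 56.7 TPM against 54.5, 45.6 and 44.9 TPM, with overlap). At 24 h 12 of the 20 fell, and Dst (change −0.10, adjusted p = 0.22) and Frmd4a (0.12, adjusted p = 0.20) no longer passed.

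Regulators of small GTPases and kinases showed similar counts. Of 16 GTPase regulators 13 fell at 6 h and 12 at 24 h. Dock1, an exchange factor for Rac, changed by −0.81 (SE 0.07) and then −1.16 (SE 0.07), and Agap1, an Arf GTPase-activating protein, by −0.90 and −0.71. Dlc1, a GTPase-activating protein, stood at 15.7, 16.6 and 16 TPM against 16.2, 14.4 and 14.7 TPM at 6 h and did not pass. Of 16 genes listed with kinases, phosphatases and phosphodiesterases, 14 fell at 6 h and 13 at 24 h. Prkca was at 80.7, 86.5 and 90.4 TPM untreated and 47.0, 38.3 and 38.5 TPM after 6 h (change −1.04, SE 0.08). Stk3, a Hippo pathway kinase, changed by −0.45 at 6 h and −0.80 at 24 h. That list also holds calcium release channels (Itpr1 and Itpr2) and adaptors such as Sh3kbp1 (−0.43 and −0.20), which are not enzymes of these classes.

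Trafficking and RNA genes held some of the deepest 24 h losses. Of 13 trafficking, autophagy and organelle genes, 10 fell at each time, with medians of −0.67 and −1.06. The exocyst subunits Exoc4 and Exoc6b changed by −0.67 and −0.95 at 6 h and by −1.06 and −0.97 at 24 h. Gphn, which clusters inhibitory neurotransmitter receptors and makes molybdenum cofactor, changed by −0.69 and −1.15. Of 6 RNA-binding, splicing and decay genes, 4 fell at 6 h and all 6 at 24 h. Snd1 was at 458, 465 and 460 TPM untreated and 292, 330 and 321 TPM after 6 h of chemotherapy, and at 561, 571 and 504 against 284, 343 and 307 TPM at 24 h (changes −0.55 and −0.81). Msi2, an RNA-binding translational regulator, changed by −0.77 and −0.88. Dis3l2, an exonuclease that degrades uridylated RNA, fell by 0.71 and then by 2.02 on the log2 scale, from 13.1, 12.6 and 13.6 TPM to 2.46, 2.46 and 2.51 TPM at 24 h.

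Metabolism and transport had the largest median at 24 h. Of its 19 genes, 15 fell at 6 h and 18 at 24 h, with medians of −0.60 and −1.43. Pcca, a subunit of propionyl-CoA carboxylase, went from 67.0, 55.9 and 53.5 TPM to 14.2, 14.2 and 10.8 TPM at 24 h (change −2.09, SE 0.18). This list also holds Babam2, whose product works in DNA damage signalling, and Cmss1, a nucleolar protein, which changed by −2.38. Oxr1, an oxidation resistance protein, was the gene of this list that did not fall at either time. Of 13 genes listed with genome maintenance and common fragile sites, 11 fell at each time. They include Fto, an RNA demethylase (−0.72 and −0.85). Mad1l1, a spindle checkpoint protein, changed by −0.73 at 6 h and did not pass at 24 h (38.5, 32.9 and 25.6 against 31, 29.1 and 26.5 TPM, with overlap).

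Falls were fewer at 6 h than at 24 h among surface and matrix genes. Of 24 adhesion, receptor, ligand and matrix genes, 15 fell at 6 h and 19 at 24 h, with medians of −0.34 and −0.84. Ltbp1, a matrix protein that binds latent TGF-beta, was the most abundant, at 137, 145 and 140 TPM untreated and 107, 103 and 102 TPM after 6 h, and changed by −0.43 and then −0.75. Tenm4, a teneurin receptor, changed by −0.76 and −0.98. Of 31 genes listed as transcription factors and chromatin proteins, 21 fell at 6 h and 18 at 24 h, with medians of −0.47 and −0.41. Tcf4 and Cux1, both transcription factors, changed by −0.52 and −0.27 at 6 h and by −0.73 and −0.72 at 24 h. Rere, a co-repressor, changed by −0.45 and −0.40. Gtdc1 was counted in this list although its product is not a transcription factor. Of 8 ubiquitin and proteolysis genes, 5 fell at 6 h and 7 at 24 h, among them Fbxl17, an F-box protein (−1.0 and −0.97), and Mid1, a ubiquitin ligase of microtubules (−0.34 and −0.86). Ube2e2, a ubiquitin-conjugating enzyme, passed at 24 h alone (−1.18, SE 0.14). Of the 38 members in no list, 22 fell at 6 h and 24 at 24 h. The counts of all lists stand beside a lower share of 13.5% at 6 h and 24.3% at 24 h among all genes, and differences between the lists were not tested.

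The 10 longest members were not the most affected at 6 h on the scale of log2(TPM + 1), which damps the changes of the weakly expressed ones. Gm20388, Pde4d (1503514 bases), Galntl6, Opcml, Anks1b, Gpc6, Cdh13, Zfhx3, Sdk1 and Celf2 had mean levels from 0.425 TPM for Galntl6 to 38.4 TPM for Gm20388. At 6 h only Gpc6, a glypican (change −0.53, SE 0.07), and Zfhx3 among these 10 were called after chemotherapy. At 24 h Gpc6 went from 3.22, 3.28 and 3.11 TPM to 0.195, 0.230 and 0.185 TPM (change −1.80, SE 0.07). Sdk1, an immunoglobulin-type adhesion molecule, went from 1.13, 1.24 and 1.38 TPM to 0.0318, 0.0110 and 0.0388 TPM (change −1.13). Opcml, a lipid-anchored adhesion molecule, was at 1.56, 2.15 and 1.84 against 1.41, 2.32 and 2.04 TPM and did not pass at either time. Pde4d, a cAMP phosphodiesterase, changed by −0.10 at 6 h and −0.51 at 24 h.

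Across the 8 group means, the members whose pattern was most like that of Pard3 by Pearson's correlation were March1 (r = 0.985), a membrane-bound ubiquitin ligase, Cacnb2 (0.959), a calcium channel subunit, and Sema5a (0.955), a semaphorin. These correlations rest on 8 points and are a description.

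Trametinib alone left the members near the rest of the genes at 6 h, while at 24 h more of them were called lower and fewer higher. At 6 h 45 members (22.1%) were called lower and 67 (32.8%) higher, against 18.9% and 35.9% of all genes tested, and at 24 h 71 (34.8%) and 54 (26.5%), against 26.3% and 32.4%. The median change was 0.09 and then −0.03 for members, and 0.10 and 0.04 for all genes. The share called lower lay between 18.5% and 29.0% in the span bins at 6 h and between 26.3% and 40.6% at 24 h. At both times it was highest in the 69 genes of 500 kb or more. Of these, 27.5% were called higher at 6 h and 20.3% at 24 h. Single members still moved strongly. Slc7a11, the cystine importer, was at 8.67, 8.64 and 8.54 TPM untreated and 1.27, 1.90 and 1.58 TPM after 6 h of trametinib (change −1.90, SE 0.11, adjusted p = 4.3e-11). At 24 h it was at 26.2, 24.7 and 24.0 TPM against 2.14, 1.78 and 2.07 TPM, a change of −3.12 (SE 0.11). The untreated level itself was higher at 24 h than at 6 h. Sema6d, a semaphorin, went from 12.5, 13.5 and 13.4 TPM to 5.23, 6.04 and 5.55 TPM at 6 h (change −1.10) and changed by −1.23 at 24 h. The other large falls were those of Nav3 (−0.96 and −0.94), a microtubule-associated protein, Arhgap6 (−0.95 and −0.86), a GTPase-activating protein, Kcnq5 (−0.86 and −0.31), a potassium channel, Smyd3 (−0.36 and −1.04), a lysine methyltransferase, and Cmss1 (−0.76 and −0.93).

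Trametinib also raised a set of very long genes. Palld, an actin-binding protein, was at 4.14, 3.78 and 4.70 TPM untreated and 11.7, 12.5 and 13.1 TPM after 6 h (change 1.37, SE 0.11, adjusted p = 4.1e-09), and changed by 0.95 at 24 h. Limch1, an actomyosin regulator, was at 5.43, 5.43 and 3.60 TPM against 10.2, 9.85 and 11.5 TPM at 6 h, and at 7.78, 7.99 and 5.53 against 27.9, 21.1 and 21.9 TPM at 24 h (changes 1.00 and 1.61, SE 0.18 each). For both genes the trametinib libraries were all above the untreated ones, which the naming rule required. Cadm1, an adhesion molecule, went from 10.9, 10.6 and 10.1 TPM to 32.0, 25 and 28.4 TPM at 24 h (change 1.35). Foxp1 (1.10), a transcription factor, rose at 24 h as well, and Apbb2 (0.84) and Bcas3 (0.83) at 6 h. Pde4b rose by 0.96 at 6 h and fell by 0.21 at 24 h. Elmo1, a Rac activator of Dock proteins named after its values were seen, had the largest rise at 24 h (2.12), from a mean of 2.52 to 14.3 TPM.

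Under the combination the median change of the members lay between those of chemotherapy and trametinib alone. The number of large falls did not do so at 6 h. A log2 change of −1 or below was called in 25 members, against 17 under chemotherapy and 3 under trametinib. At 24 h it was called in 25, against 71 and 9. Under chemotherapy 0.270% of all genes passed this cut at 6 h and 2.07% at 24 h. For trametinib and the combination no share of all genes stands beside these counts. They are therefore a description of the members alone. At 6 h 121 members (59.3%) were called lower and 20 (9.8%) higher than untreated cells, against 19.8% and 38.6% of all genes tested, with a median of −0.34. At 24 h the counts were 112 (54.9%) and 41 (20.1%), against 23.8% and 39.6%, with a median of −0.30. Rescaling the libraries by median ratio moved all genes by 0.11 on the log2 scale in the 24 h comparison. The falls at 6 h were led by Slc7a11 (−1.85), Kcnq5 (−1.51), Pard3 (−1.44), Scfd2, a vesicle fusion factor (−1.34), and Gtdc1 (−1.29), and those at 24 h by Slc7a11 (−3.12), Cdh13 (−2.59), Cmss1 (−2.57), Gtdc1 (−2.36) and Trappc9 (−1.80). The rises at 6 h were led by Palld (1.08), Pde4b (1.06), Oxr1 (0.54), Pde4d (0.54) and Limch1 (0.52). Limch1 lost that call without the third combination library (0.32) or the third untreated library (0.36). At 24 h Limch1 (1.74), Oxr1 (0.94), 2010111I01Rik (0.85), Foxp1 (0.84) and Palld (0.83) led. The comparisons with untreated cells share the untreated libraries.

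**Figure D5:**
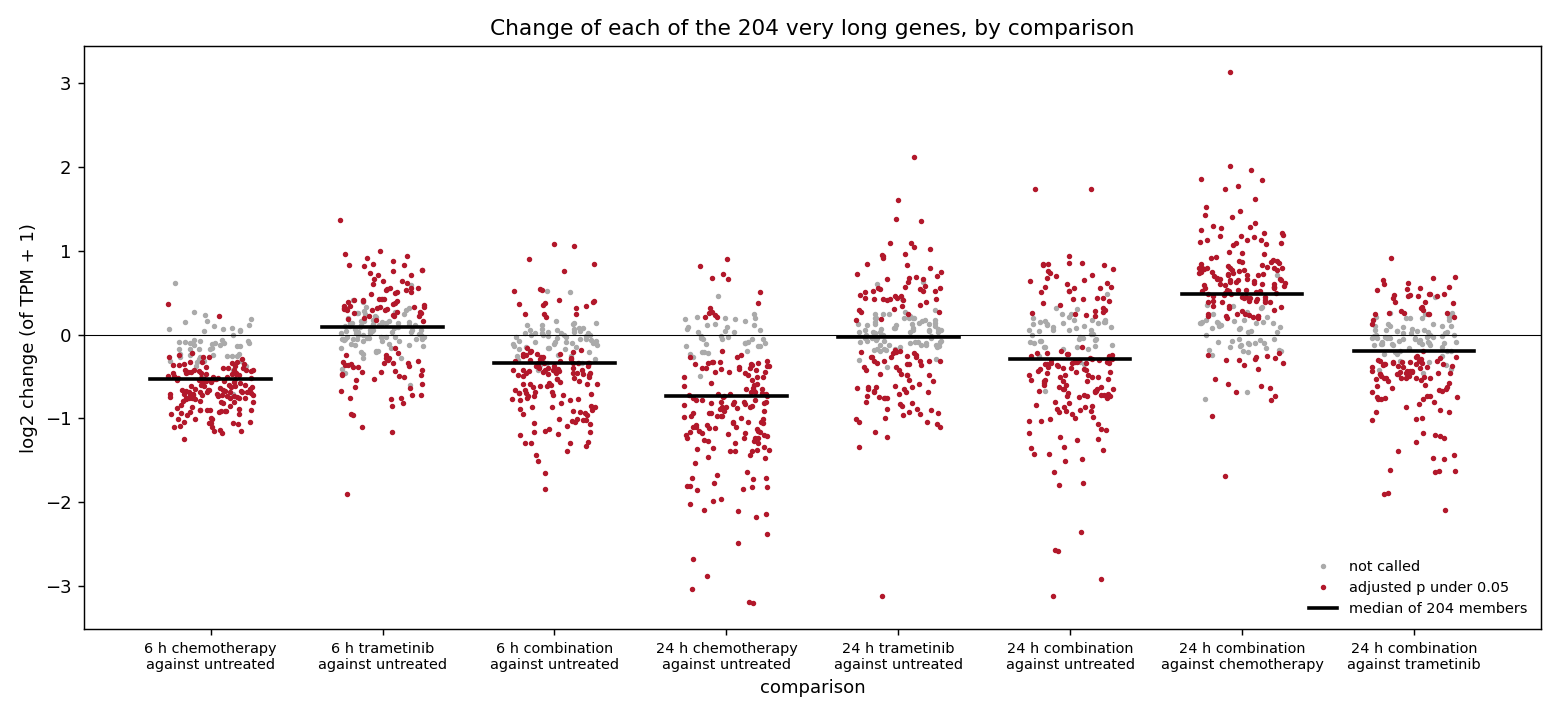
Log2 change of each of the 204 members in 8 comparisons, with called members in red, the others in grey and black bars for the median. The bars lie at −0.53 and −0.74 for chemotherapy at 6 h and 24 h, at 0.09 and −0.03 for trametinib, and at 0.48 for the combination against chemotherapy at 24 h.

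The combination was compared with trametinib alone, from which it differs by the addition of cisplatin and pemetrexed. The size of this change uses none of the libraries of the rule. Its SE and adjusted p rest on a spread estimated over all 24 libraries, which include them. At 6 h 137 members (67.2%) were called lower and 1 (0.49%) higher, against 6.53% and 12.3% of all genes tested, with a median of −0.41 for members and 0.03 for all. The lower share was 2.71% for genes under 10 kb, 25.7% from 100 to 300 kb, 68.9% from 300 to 500 kb and 63.8% at 500 kb or more. Gtdc1 (6.58, 6.41 and 6.64 against 2.60, 1.82 and 2.37 TPM; change −1.22), Pard3 (−1.06) and Tenm4 (−1.01) fell most. Gm45062, named because the count is 1, rose by 0.40. Without the second trametinib library, 2 members were called higher. At 24 h 93 members (45.6%) were lower and 35 (17.2%) higher, against 18% and 31.4%, with a median of −0.20. Cdh13 was at 17.0, 15.1 and 18.9 TPM with trametinib and 2.59, 3.84 and 3.20 TPM with the combination (change −2.10, SE 0.11). Gtdc1 (−1.89) and Cmss1 (−1.64) followed. Csgalnact1, a chondroitin sulfate enzyme (0.68), and Sema6d (0.66) were among the rises.

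Set against chemotherapy alone, the combination had higher levels of many members, more so at 24 h. The size of this change also leaves out the untreated libraries, though its SE does not. The comparison shares the combination libraries with the one before. At 6 h 92 members (45.1%) were called higher and 25 (12.3%) lower, against 39.7% and 16.4% of all genes, so the members stood close to the background. Median-ratio rescaling moved all genes by 0.10 in this comparison and gave 75 higher and 40 lower. At 24 h 134 members (65.7%) were higher and 20 (9.8%) lower, against 30.3% and 23.2%, with a median of 0.48 for members and 0.03 for all genes. The higher share was 26.2% for genes under 10 kb, 66.7% from 300 to 500 kb and 63.8% at 500 kb or more.

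Single genes showed how far the levels differed. Gmds was at 11.4, 12.1 and 10.1 TPM after 24 h of chemotherapy and at 44.6, 50.2 and 49.1 TPM with the combination (change 2.01, SE 0.06, adjusted p = 2.0e-15), all above its untreated 42.5, 38.7 and 39.9 TPM. Cpq was at 4.91, 5.60 and 5.20 TPM against 22.5, 23.1 and 18.7 TPM (change 1.84), below its untreated 35.3, 34.2 and 32.9 TPM. Limch1 was at 5.97, 5.58 and 5.95 against 28.0, 28.0 and 21.8 TPM (change 1.97). Trappc9 was higher by 1.41, at 3.90, 4.75 and 4.37 TPM, and Gtdc1 by 0.52, at 1.73, 1.44 and 1.96 TPM, so both remained far below untreated cells. Slc7a11 (−1.68), Sema6d (−0.78) and Scfd2 (−0.61) were lower with the combination. Elmo1 had the largest difference, with a mean of 0.338 TPM after chemotherapy and 10.8 TPM with the combination (change 3.13). At 6 h Limch1 (1.57), Ehbp1, an endocytic adaptor (1.08), and Baz2b, a bromodomain protein (0.94), were the most raised, and Slc7a11 (−1.59), Sema6d (−1.0) and Arhgap6 (−0.82) the most lowered.

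The genes that act on elongation and repair were looked at as a list. Of 48 listed genes of transcription elongation 46 were tested. At 6 h of chemotherapy 6 fell and 1 rose, with a median of −0.06, against 0.01 for all genes. The falls were 13% of the list, against 13.5% of all genes, and 11.3% of all genes rose. The falls included Mllt3 (−0.58), a super elongation complex subunit with a gene of 263440 bases, Cdc73 (−0.52), a subunit of the Paf complex, and Setd2 (−0.52), the histone methyltransferase that travels with elongating polymerase, and the rise was Hexim1 (0.40), an inhibitor of P-TEFb. At 24 h 26 rose (56.5%) and 6 fell (13%), against 34.9% and 24.3% of all genes, with a median of 0.24, against 0.06 for all genes. The rises included Polr2a, the largest subunit of RNA polymerase II (0.84), Aff4, a scaffold of the super elongation complex (0.88), and Cdk12, a kinase of the polymerase's tail (0.66). Tcea2, a paralog of elongation factor TFIIS, fell by 1.00. Of 28 genes of transcription-coupled and nucleotide excision repair, 4 fell and 3 rose at 6 h, and 9 fell and 9 rose at 24 h. These are 14.3% and 10.7%, then 32.1% each, near the shares of all genes. Mnat1, a TFIIH-associated assembly factor and at 150272 bases the longest gene of this list, fell by 0.33 at 6 h. Ddb2 (0.52) and Ercc5 (0.68), a damage sensor and an incision nuclease, rose at 6 h, and Gtf2h1, a subunit of TFIIH, rose by 1.10 at 24 h. Ercc6, which recruits repair to stalled polymerase, fell by 0.25 at 6 h and by 0.22 at 24 h. Genes of both lists were singled out after their values were seen. The part of these changes in the falls of very long genes was not tested.

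The effect of a treatment at 24 h was also tested against its effect at 6 h. For chemotherapy the effect was lower at 24 h in 80 members (39.2%) and higher in 39 (19.1%), against 16.7% and 28.3% of all genes. For trametinib it was lower in 55 (27.0%) and higher in 28 (13.7%), against 22.3% and 15.9%. For the combination it was lower in 42 (20.6%) and higher in 69 (33.8%), against 24.3% and 25.3%. Each of these differences includes the change of the untreated cells between the times, in which the median member went from 6.18 to 6.73 TPM at 6 h to 7.93 to 8.02 TPM at 24 h.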

How the data were processed

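The 24 stranded poly(A) libraries of LLC1 cells were used. The deposited table gives TPM per transcript, made by the authors with bcl2fastq 2.17.1.14 and kallisto 0.45 on GRCm38, per the submitters' processing notes. Which release of transcripts they used: not given in the sources used here. TPM keeps no depth, so the reads behind a value are unknown and no interval for counting error is given. Of 82934 transcripts, 79662 matched GENCODE M21 and were summed to 28328 genes, and the other 3272 (4.45% to 5.98% of TPM) were left out. From the deposited values log2(TPM + 1) was computed, and the 12581 genes that reached 1 TPM in 3 or more of the libraries were fitted in 1 model of 8 groups with limma 3.58.1 in R 4.3.3, Benjamini-Hochberg adjusted. The authors' design text names DESeq2, which needs counts. The fitting was tested on simulated data with rises planted in the chemotherapy group of 6 h. That simulation did not cover falls, genes near 1 TPM or the full-span and short-span classes. P-values reflect only how libraries vary within groups, pooled over the 8 groups for each gene and moderated across genes by limma. That variation may be technical. A gene's SE is thus the same in each comparison of 2 groups, however widely those groups vary. Pairing by replicate number was checked: correlations of deviations ran from −0.317 to 0.335 over 30 pairs, so no block was used.

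Members, role lists and pathway lists were chosen with earlier results of these data known. Genes are named by a rule: the 10 longest; the 5 largest falls and rises of each treatment against untreated cells and the 3 largest of the combination against each part, among called members with a mean of at least 5 TPM and no overlap of libraries; the 3 most abundant of each role list; the genes nearest the thresholds; and Pard3. Exceptions are stated, and a few genes that the rule names are not reported here. Alternatives were another pseudocount, filters, rescaling, a replicate block, a fit per time, Bonferroni adjustment, each library left out, and other spans and levels.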

Additional observations from a re-analysis of the deposited data

Results flagged for a closer look

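The effect of each drug treatment was tested for a difference between 24 h and 6 h in the same limma model, as the effect at 24 h minus the effect at 6 h. Of the 204 members, the chemotherapy effect was called lower at 24 h in 80 and higher in 39, against 16.7% and 28.3% of all genes. The trametinib effect was called so in 55 and 28, against 22.3% and 15.9%. For the combination effect the counts were 42 and 69, against 24.3% and 25.3%. A few members were called in opposite directions against untreated cells at the 2 times, and in each of them the difference itself also passed the test. Under chemotherapy this was Zfhx3, with a difference of 0.94 on the log2 scale. Under trametinib these were Exoc4 (−0.67), Pde4b (−1.17) and Trappc9 (−0.65), which were above untreated cells at 6 h and below them at 24 h. Under the combination Gm20388 (−0.40) was above and then below, and Zfhx3 (0.86), Gmds (0.43), Camk1d (0.66), Sh3kbp1 (0.38) and Cadm1 (0.84) were below and then above. No count over all genes stands beside these opposite calls. The test for a single outlying value within a group needs at least 4 libraries and was not run.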

How the results depend on the processing

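Counts are given as lower and higher members, in the order chemotherapy, trametinib and the combination against untreated cells, then the combination against chemotherapy and against trametinib. With genes of a mean of at least 5 TPM, which leaves 119 members, the 6 h counts were 95 and 1, 24 and 40, 71 and 12, 15 lower, and 85 and 0. The 24 h counts were 92 and 5, 41 and 32, 66 and 25, 9 and 84, and 59 and 20. Bonferroni adjustment under 0.10 gave 83 and 0, 21 and 19, 62 and 4, 11 and 35, and 66 and 0 at 6 h, and 1 higher for chemotherapy, 33 and 24, 66 and 18, 6 and 85, and 47 and 8 at 24 h. Over all genes it called 566 in place of 3116 for chemotherapy at 6 h and 3057 in place of 7447 at 24 h, and the other 8 comparisons also dropped by more than 1.5 times. The first setting tests fewer members and the other is stricter by construction.

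Median-ratio rescaling gave 4 higher for chemotherapy at 6 h and 8 at 24 h, 40 lower for the combination against chemotherapy at 6 h, and 2 higher against trametinib at 6 h. Without the filter, or with a fit per time, 1 member was higher after 6 h of chemotherapy. With full-span set at 80% of the gene, 42 members in place of 25 had lower short-span transcripts at 6 h; the cause was not tested. Leaving out 1 library gave ranges at 6 h of 139 to 146 and 1 to 3, 39 to 44 and 52 to 68, 116 to 121 and 14 to 21, 22 to 31 and 76 to 97, and 117 to 136 and 1 to 2. At 24 h they were 147 to 150 and 8 to 13, 64 to 71 and 50 to 57, 103 to 111 and 38 to 43, 17 to 20 and 129 to 134, and 82 to 95 and 28 to 36.

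The replicate numbers did not pair the libraries: 8 of 30 pairs correlated above 0.1 and 6 libraries correlated best with their own number. With the replicate block, chemotherapy gave 146 lower and 2 higher at 6 h and 150 and 10 at 24 h. Of 988 alternatives for 76 named results, 965 kept direction and call, 23 lost the call and 0 reversed. Most of these results were named for being large and called, so they were less likely to lose the call. Of 144 alternatives for 24 member counts, 99 were judged the same.

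TPM hides depth, and the changes of members near 1 TPM are damped by the pseudocount. The assignment of reads to overlapping transcripts was made upstream and cannot be checked here.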
